A study of Mus musculus with 17 samples.

Results

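The constitutive proteasome subunits were followed at the level of their messenger RNA in 17 libraries of sorted mouse hematopoietic stem and progenitor cells (HSPC). Members were the rows of the count table whose gene symbol has the form Psma, Psmb, Psmc, Psmd, Psme, Psmf or Psmg followed by a number. Of 35321 rows, 48 had such a symbol. The immunoproteasome subunits Psmb8, Psmb9 and Psmb10 were set aside, which left 45, and 44 of these had at least 10 counts in at least 3 libraries. The row not kept was Psmb11, the thymic beta subunit. All 44 members also passed the filter on low counts that preceded the tests, so all were among the 14920 genes tested.

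The 26S proteasome degrades proteins that carry ubiquitin chains. Its barrel-shaped core is built from alpha rings, which gate entry, and beta rings, which hold the peptidase sites; a regulatory particle, made of a base and a lid, binds ubiquitinated proteins, removes the ubiquitin and feeds the unfolded chain into the core. Other caps can open the core without ubiquitin, dedicated chaperones assemble the rings and the base, and in inflammation the catalytic beta subunits can be exchanged for those of the immunoproteasome. By class, the 44 members comprised 8 core alpha subunits, 7 core beta subunits, 6 ATPases of the base, 3 other base subunits, 8 lid subunits, 5 activators or regulators of the core and 7 assembly chaperones.

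Wild-type mice of the inbred strain C57BL/6J were injected into the peritoneum. The 5 PBS libraries came from mice given phosphate-buffered saline and are titled day 0. LPS, a bacterial cell wall component that activates innate immune signalling, was given alone in 3 libraries collected at 24 h and 3 collected at 72 h. At each time, 3 further libraries came from mice given LPS and, in addition, an antibody blocking IL-10R, the receptor of the anti-inflammatory cytokine interleukin-10. The amounts appear as 5 µg of LPS and 100 µg of antibody in the series' design text but as 5 mg and 100 mg in the sample protocol, and neither was assumed. The sex and age of the mice, a control antibody, a PBS group for each time and the sorting gate are not given in the sources used here. The labels do not say that each library came from a separate mouse, so p-values measure the spread between these libraries, which may be partly technical.

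Library totals ran from 10516722 to 16006001 counts. All 11 HSPC marker genes examined, among them Kit, Cd34 and Flt3, were detected in each library (0 of 187 values at 0 counts), with a summed level of 1749 to 2577 CPM with PBS and 1093 to 1246 CPM with LPS at 24 h. CPM is the read count relative to library size, which was adjusted here by TMM factors (trimmed mean of M-values, a correction for library composition). Library 1 of the LPS group at 24 h stood apart, with a TMM factor of 0.799 against 0.947 to 1.12 in the other 16. Counts, medians and some single changes of the members are also given without it. Changes of other genes are given only with it in the fit. In such bulk samples, fewer cells of a type and less RNA per cell cannot be told apart.

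Promoter sequences are shown first because subunits of the core and of the regulatory particle differed in the letters they hold. RefSeq (GRCm38.p6) promoter windows, from 250 bases before to 50 bases after the gene start, were matched by symbol for 36 of the 44 members; the 8 unmatched members are Psma8, Psmb1, Psmb2, Psmb7, Psmc3, Psmd3, Psmd7 and Psmg2. Both strands were searched for CCGGAAG, a core of sites bound by ETS factors. It occurred in 13 of 36 member promoters (36.1%) and in 17.9% of the 10853 promoters of tested genes. Within the members it was found in 0 of 11 core promoters and in 9 of 14 promoters of base and lid subunits. The start used here is that of RefSeq, and GENCODE, the source of the gene coordinates given later, can place it earlier. The windows of Psmd12, Psmd6 and Psmc6 printed here, and of Psmb3 below, extend past the GENCODE start. For Psmd12 the capital letters lie after the GENCODE start. The 110 bases before the start are printed for Psmd12 (chr11:107479418-107479527, + strand), Psmd2 (chr16:20651542-20651651, + strand), Psmd6 (chr14:14120946-14121055, - strand) and Psmc6 (chr14:45329714-45329823, + strand), 5′ to 3′ along the gene, with the match in capitals; CTTCCGG is the same letters on the other strand.
Psmd12: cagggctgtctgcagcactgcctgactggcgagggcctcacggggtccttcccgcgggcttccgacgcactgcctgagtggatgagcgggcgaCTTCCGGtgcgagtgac
Psmd2: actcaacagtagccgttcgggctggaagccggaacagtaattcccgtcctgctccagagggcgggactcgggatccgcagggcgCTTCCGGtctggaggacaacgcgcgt
Psmd6: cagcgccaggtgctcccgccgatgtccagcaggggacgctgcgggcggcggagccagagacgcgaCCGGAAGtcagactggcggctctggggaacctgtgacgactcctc
Psmc6: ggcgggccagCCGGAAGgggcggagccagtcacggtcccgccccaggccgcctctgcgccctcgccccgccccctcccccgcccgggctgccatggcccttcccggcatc

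The CCAAT box, the letters bound by NF-Y, was most frequent in the core alpha promoters and not in the core as a whole. It was present in 12 of 36 member promoters (33.3%), against 38.9% of all promoters of tested genes, and 5 of the 7 core alpha promoters held it, as did 1 of 4 core beta promoters and 4 of 14 promoters of base and lid subunits. The windows of Psma1 (chr7:114276117-114276226, - strand), Psma2 (chr13:14613132-14613241, + strand), Psma6 (chr12:55384112-55384221, + strand) and Psmb3 (chr11:97703324-97703433, + strand) are printed as core examples, with CCAAT in capitals.
Psma1: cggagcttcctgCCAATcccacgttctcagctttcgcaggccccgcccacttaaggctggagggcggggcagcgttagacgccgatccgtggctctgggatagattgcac
Psma2: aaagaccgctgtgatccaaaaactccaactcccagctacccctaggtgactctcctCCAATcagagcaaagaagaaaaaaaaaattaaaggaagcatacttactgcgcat
Psma6: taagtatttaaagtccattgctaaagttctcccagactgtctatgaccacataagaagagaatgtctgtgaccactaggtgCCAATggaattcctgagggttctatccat
Psmb3: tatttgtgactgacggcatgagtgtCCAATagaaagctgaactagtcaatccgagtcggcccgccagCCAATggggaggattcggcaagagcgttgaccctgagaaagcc

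TGACNNNGC, the core of the antioxidant response element read by NRF1 and NRF2, was found in 16.7% of member promoters and 14.8% of all, and the E-box CACGTG in 8.3% and 10%. These matches are descriptions of letters in a window. Binding was not measured, and no test was made on them.

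With PBS, the members together took 0.524% to 0.645% of the counts of a library. Per length, which allows genes to be compared, the members spanned a wide range. Levels per kilobase of merged exons (GENCODE M21, GRCm38) were highest for Psma6 at 136 CPM per kb, Psmb5 at 119, Psme1 at 117 and Psma5 at 114. Psma8, the testis-type counterpart of Psma7, was lowest at 2.33 CPM per kb, and the base chaperone Psmd9 stood at 4.50 and the core inhibitor Psmf1 at 6.19. Class medians were 57.1 CPM per kb for core alpha, 74.7 for core beta, 68.5 for the base ATPases, 33.4 for the lid and 18.1 for the chaperones, so chaperone transcripts were less abundant than those of the particles they assemble. Merged exons can include rarely used ones, so these levels are approximate.

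**Figure D1:**
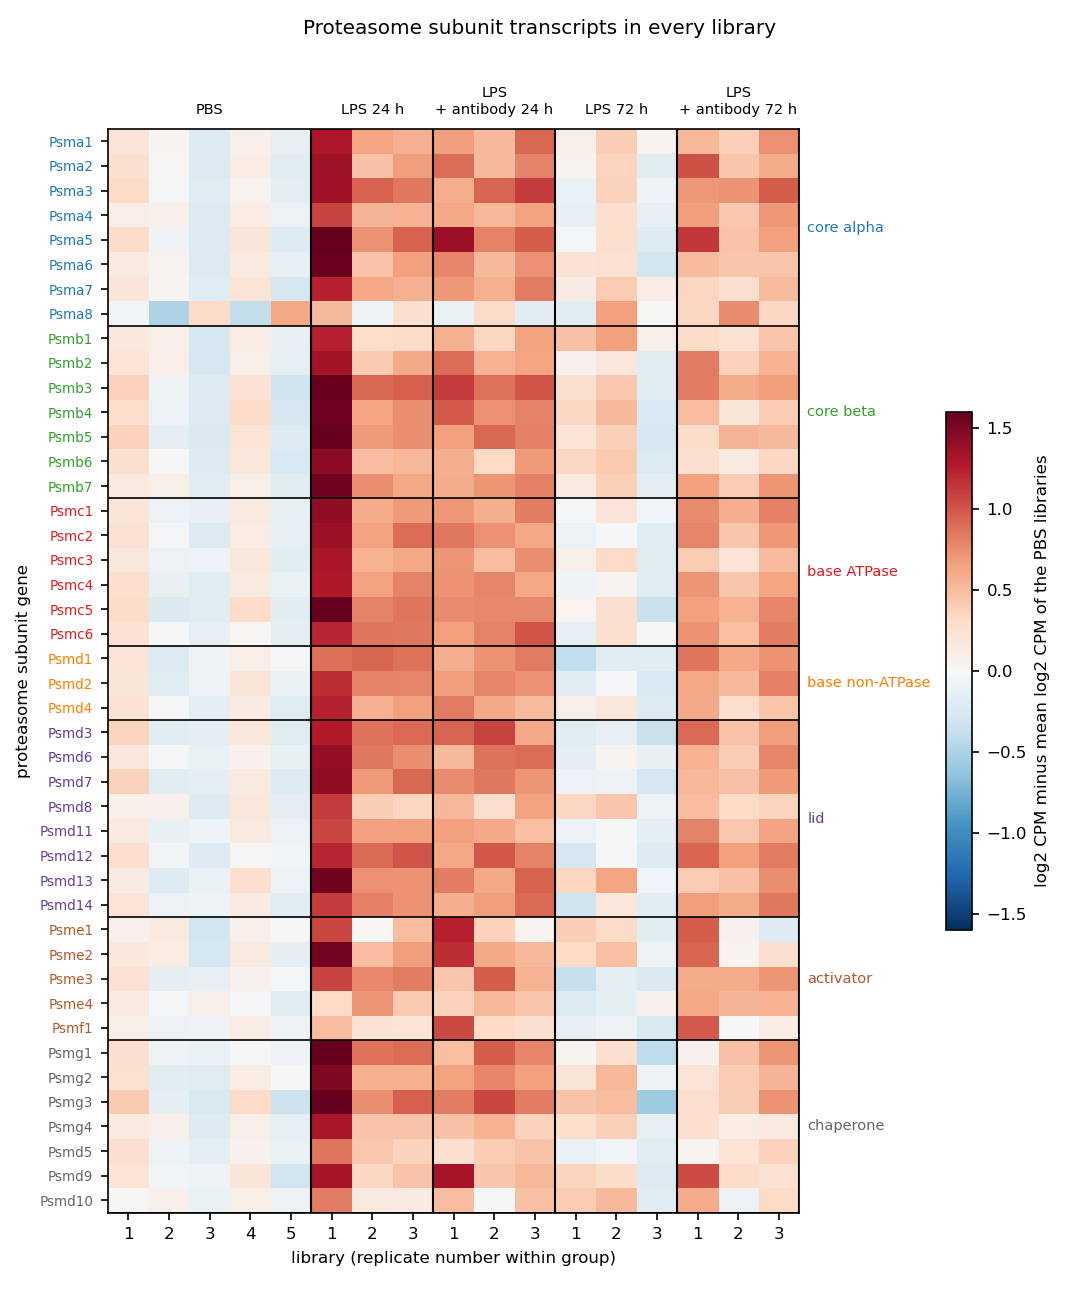
Level of each of the 44 subunits (rows, grouped by class) in each of the 17 libraries (columns, grouped by treatment), as log2 CPM minus the mean log2 CPM of the PBS libraries; values past the ends of the scale take its end colour. Both 24 h groups are red almost throughout, and the LPS with antibody 72 h libraries are red again. The LPS 72 h libraries are nearer PBS, with most members above the PBS mean in library 2 and below it in library 3.

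The early response was read from LPS at 24 h against PBS. Transcripts of nearly every subunit rose: 40 of 44 members were higher and 0 lower by edgeR's quasi-likelihood test (Benjamini-Hochberg adjusted p below 0.05, called in what follows), where 37.6% of all tested genes were called in either direction and 19.1% were higher. Among the more highly expressed part of the tested genes, 31.4% were higher. The median change of the members was 0.91 on the log2 scale, a 1.88-fold rise, with single members from 0.19 to 1.26, while the median of all tested genes was -0.03. For 42 members each LPS library lay above each PBS library, as it did for 20.6% of tested genes. The share of library counts held by the members was 0.810%, 0.835% and 1.04% in the 3 LPS libraries.

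In the core, 7 of 8 alpha and 7 of 7 beta subunits rose. Psma3, an alpha ring subunit, had 133, 104, 93.2, 111 and 97.1 CPM with PBS and 272, 206 and 192 CPM with LPS at 24 h. The groups did not overlap, and the log2 change was 1.05 (SE 0.16, edgeR adjusted p = 0.000518). Psma8 had 3.94 to 8.56 CPM with PBS and 5.29 to 7.97 CPM with LPS, overlapping levels with a change of 0.19 in log2 (SE 0.27, edgeR adjusted p = 0.611).

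The 3 peptidase subunits of the constitutive core all rose. Psmb5, which carries the chymotrypsin-like site (chr14:54614119-54618022, - strand, GRCm38), had 136, 94.3, 89.8, 122 and 90.8 CPM with PBS and 345, 169 and 176 CPM with LPS at 24 h (log2 change 1.11, SE 0.22, edgeR adjusted p = 0.00161). Psmb6, with the caspase-like site, had 166, 139, 120.0, 157 and 117 CPM with PBS and 374, 195 and 201 CPM with LPS (log2 change 0.88, SE 0.20, edgeR adjusted p = 0.0042). Psmb7, with the trypsin-like site, had 134, 128, 105, 128 and 107 CPM and then 349.6, 201 and 184 CPM (log2 change 1.02, SE 0.18, edgeR adjusted p = 0.000925). In each of the 3, LPS library 1 was far above the other LPS libraries, and these in turn lay above all PBS libraries. Without library 1 the changes were 0.71 for Psmb5, 0.51 for Psmb6 and 0.69 for Psmb7, and all 3 were still called. Psmb3, a structural beta subunit, had the smallest p of the ring, with 138, 103, 92.3, 127 and 86.0 CPM against 340.1, 204 and 208 CPM (log2 change 1.20, SE 0.19, edgeR adjusted p = 0.00059). Psmb1, another structural beta subunit, had the largest p, with 126 to 169.8 CPM against 359, 184 and 186 CPM and a change of 0.68 in log2 (SE 0.19, edgeR adjusted p = 0.0136). With the replicate number as a block, the call of Psmb1 was lost (edgeR adjusted p = 0.0513) and 39 members were called.

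All 17 members of the regulatory particle rose. Psmc6, one of the ATPases that unfold substrates, had 129, 109, 100.5, 112 and 99.6 CPM with PBS and 255, 197 and 196 CPM with LPS at 24 h. Psmd1, the large scaffold of the base (chr1:86064387-86139151, + strand, GRCm38), had 206, 154, 170.2, 192 and 177 CPM and then 331, 340.2 and 327 CPM, with a change of 0.89 in log2 (SE 0.11, edgeR adjusted p = 0.000313). For Psmd1 the 3 LPS libraries were nearly equal, so library 1 did not stand out there. Psmd12, a scaffold subunit of the lid (chr11:107479484-107504362, + strand, GRCm38), had 101, 81.3, 72.5, 85.2 and 81.1 CPM with PBS and 195, 157 and 169 CPM with LPS (log2 change 1.04, SE 0.12, edgeR adjusted p = 0.000313). The members with the largest p in the ATPases, the other base subunits and the lid were still called, and their groups did not overlap. The ATPase Psmc3 had 179 to 231 CPM with PBS and 503, 301 and 314 CPM with LPS at 24 h (log2 change 0.86, SE 0.16). Psmd4, a ubiquitin receptor, had 100.1 to 134 CPM and then 269, 169 and 179.9 CPM (0.84, SE 0.16). Psmd8, a lid subunit, had 138 to 180.3 CPM and then 344, 209 and 202 CPM (0.66, SE 0.17).

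The alternative caps moved less uniformly. Psme3, which forms a nuclear activator of the core, had 211, 162, 165, 189 and 178 CPM with PBS and 382, 306 and 319 CPM with LPS at 24 h (log2 change 0.89, SE 0.13, edgeR adjusted p = 0.000487). Psme4, a large single-chain activator, had 91.2, 81.1, 87.8, 80.8 and 72.1 CPM and then 103, 134 and 109.7 CPM (log2 change 0.48, SE 0.11, edgeR adjusted p = 0.00313). Both were called, and for neither did the groups overlap. Psme2, an interferon-inducible activator subunit, had 152, 147, 112, 150.4 and 123 CPM with PBS and 392, 191 and 215 CPM with LPS (log2 change 0.96, SE 0.24, edgeR adjusted p = 0.00713). Its partner Psme1, which lies beside it on chromosome 14, had 270.4, 287, 207, 271 and 256 CPM and then 539, 259.6 and 361 CPM, so the groups overlapped and the log2 change of 0.58 (SE 0.29) had an edgeR adjusted p of 0.129. Psmf1 had 37.2 to 43.3 CPM against 56.1, 46.6 and 46.1 CPM, a change of 0.32 (SE 0.21, edgeR adjusted p = 0.244) although the groups did not overlap. Psme2 has a near copy, Psme2b, and proteasome genes have processed pseudogenes; how reads matching both were counted is not given, so such counts are uncertain to that extent.

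Among the chaperones 6 of 7 rose. With all libraries in the fit, the largest change of any member was that of Psmg1, a chaperone of alpha ring assembly, which had 41.9, 33.3, 32.6, 35.1 and 33.5 CPM with PBS and 124, 64.0 and 65.4 CPM with LPS at 24 h (log2 change 1.26, SE 0.21, edgeR adjusted p = 0.000774). Psmg3 followed at 1.21 (SE 0.26). This order rested on LPS library 1: without it the change was 0.89 for Psmg1 and 0.83 for Psmg3, below 0.97 for Psmd12 and 0.93 for Psmb3. Psmd10, which escorts a base ATPase, had 24.8 to 28.2 CPM against 46.9, 29.4 and 29.1 CPM and was not called (0.40, SE 0.20, edgeR adjusted p = 0.127).

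Size, though not direction, rested in part on LPS library 1. Relative to PBS, the median member stood at 1.30 on the log2 scale in library 1 and at 0.64 and 0.67 in the other 2. Without library 1 the median change was 0.65 and 36 members were called. The calls of Psmb1, Psmd8, Psmd9 and Psme2 were lost. Over all tested genes 3361 were called in that fit, against 5616 in the main fit. Marker genes of other cells also moved with this comparison: 10 of 11 monocyte and macrophage markers, 3 of 8 B lymphoid, 3 of 9 T and NK and 2 of 5 megakaryocyte markers were lower, with macrophage sums of 545 to 3327 CPM with PBS and 220.2 to 249.9 CPM with LPS. Of the 11 HSPC markers 7 were lower, and of 8 neutrophil markers 0 were called. Among all tested genes 18.5% were lower. Of 10 erythroid markers 1 was higher and 1 lower, with sums of 242 to 377 CPM with PBS and 294.5 to 769 CPM with LPS. Values at 0 counts were few in these lists, 3 of 136 for B lymphoid, 5 of 153 for T and NK and 0 of 187 for macrophage markers. The part of these shifts in the rise of the members was not tested. At 72 h with LPS alone, macrophage markers had a median log2 change of -4.33, with 0 of 11 called. Their sums at that time, 517 to 900 CPM, overlapped with those of PBS. Most of these sums came from Lyz2 and Csf1r, with means of 359 and 228 CPM, so the overlap does not describe the other markers. The part of these markers in the levels of the members at 72 h was not tested either.

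**Figure D2:**
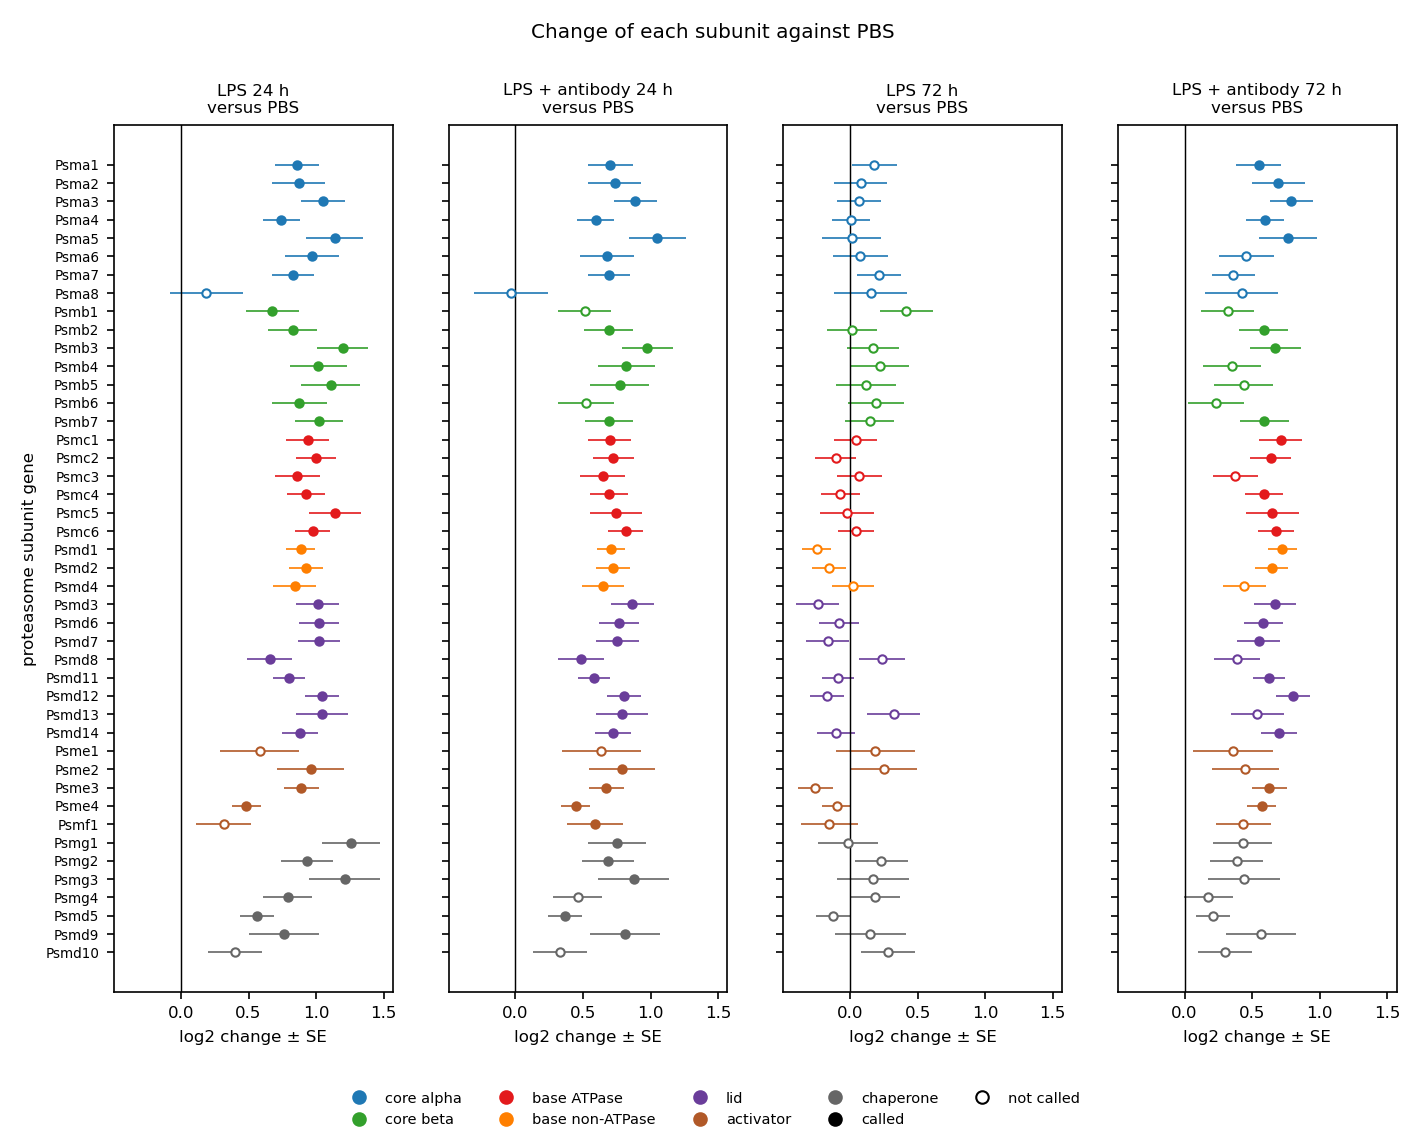
Log2 change of each subunit against PBS with its standard error, in 1 panel per treated group; filled points are called by edgeR at an adjusted p below 0.05 and colours give the class. With LPS at 24 h 40 points are filled, with LPS and antibody 38 at 24 h and 23 at 72 h, and with LPS at 72 h 0.

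With LPS and the IL-10R antibody at 24 h the same broad rise was measured. Relative to PBS 38 members were higher and 0 lower by edgeR, against 24.2% of tested genes called and 11.7% higher. The median change was 0.70, from -0.04 for Psma8 to 1.05 for Psma5, and 40 members did not overlap with PBS (14.2% of tested genes). The largest changes were those of Psma5, Psmb3 (0.98, SE 0.19) and Psma3 (0.89, SE 0.16). Psma5, with 387, 260 and 292 CPM, was highest in library 1. With 1 library left out its change fell as low as 0.87, still called in 8 of 8 such fits. Psmd12 had 128, 167 and 145 CPM and Psmb5 had 166, 198 and 183 CPM, all above every PBS library. Psmf1, with 82.5, 49.7 and 47.3 CPM, was just past the threshold (log2 change 0.59, SE 0.21, edgeR adjusted p = 0.0487). That call rested on library 1: without it the change was 0.29 (edgeR adjusted p = 0.318), and it was kept in 1 of 8 fits leaving out a library and in 4 of 9 other settings. Among the markers, 7 of 11 macrophage, 6 of 11 HSPC and 3 of 5 megakaryocyte genes were lower than with PBS. So were 2 of 8 B lymphoid and 2 of 9 T and NK genes, and 12.5% of tested genes. Of the HSPC and of the erythroid genes 1 each was higher, and summed erythroid levels were 167 to 822 CPM. Their part was not tested. Without library 2 of this group 24 members were called, with a median change of 0.72. Over all tested genes 877 were called in that fit, against 3605 in the main fit.

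The antibody made no called difference at 24 h. Between LPS with antibody and LPS alone, 0 of 44 members were called by edgeR, as were 0% of tested genes. By unadjusted p below 0.05 the counts were 0 members and 273 genes (1.83%), and DESeq2 called 0 members. Estimates ran from -0.51 for Psmg1 to 0.27 for Psmf1 with standard errors of 0.12 to 0.33, and 41 of 44 were below 0, with a median of -0.20. That lean rested on LPS library 1: with both 24 h libraries numbered 1 left out the median was 0.05. A miss of the threshold at these standard errors does not show that the levels were equal.

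At 72 h after LPS alone the members were on average back near the PBS level, but the libraries differed. In library 2, 26 of 44 members lay above every PBS library and 1 below. In library 3, 0 lay above and 17 below, and in library 1, 12 above and 7 below. These counts were not made over all tested genes, so they do not set the members apart from other genes. Relative to PBS 0 of 44 were called by edgeR, where 0.0201% of tested genes, 3 in number, were called; by unadjusted p below 0.05 there were 2 members, Psmd1 (-0.25, SE 0.11) and Psmb1 (0.42, SE 0.20), against 11.4% of tested genes. The median change was 0.06, from -0.26 for Psme3 to 0.42 for Psmb1. DESeq2 called 0 members, and limma's voom with sample weights called 4 higher (Psmb1, Psmd8, Psmd10 and Psmd13). By voom 2170 of the 14920 tested genes were called, 1239 of them higher. Psmd12 had 69.3, 83.2 and 72.6 CPM, Psmb5 had 123, 137 and 88.3 CPM, and Psmg1 had 36.2, 42.3 and 26.6 CPM. For each of these 3 genes the values overlapped with those of PBS. A miss of the threshold does not show that the levels were equal.

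The fall between the times was tested within the LPS groups. From 24 h to 72 h 36 members were lower and 0 higher by edgeR, against 31.1% of tested genes called and 16.4% lower. The median change was -0.85, and 38 members did not overlap between the times (23% of tested genes). The largest decreases were those of Psmg1 (-1.27, SE 0.25), Psmd3 (-1.25, SE 0.18) and Psmd12 (-1.21, SE 0.14). Without LPS library 1 at 24 h these were -0.87, -1.09 and -1.10, so Psmg1 was then not the largest. Among the markers, 6 of 11 HSPC, 3 of 9 T and NK and 2 of 11 macrophage genes were higher at 72 h (14.7% of tested genes). Lower at 72 h were 4 of 10 erythroid genes. The part of these markers was not tested. Without LPS library 1 at 24 h the members' median was -0.54 and 25 members were called. Over all tested genes 3489 were called in that fit, against 4646 in the main fit.

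With the antibody the subunits were still raised at 72 h. Relative to PBS 23 of 44 members were higher and 0 lower by edgeR, against 13.2% of tested genes called and 6.81% higher, and 31 members did not overlap with PBS (13.4% of tested genes). With the replicate number as a block 6 members were called, with a median change of 0.54. Over all tested genes 374 were called with the block, against 1975 without it. The median change was 0.56, a 1.47-fold rise, with all 44 estimates above 0. By class the calls were 5 of 8 core alpha, 3 of 7 core beta, 5 of 6 base ATPases, 2 of 3 other base subunits, 6 of 8 lid subunits, 2 of 5 activators and 0 of 7 chaperones. The largest changes were those of Psmd12 (0.80, SE 0.12, edgeR adjusted p = 0.00419), Psma3 (0.79, SE 0.16) and Psma5 (0.76, SE 0.21). Psma5, with 329, 204 and 236 CPM, was highest in library 1. With 1 library left out its change fell as low as 0.57, and its call was kept in 3 of 8 such fits.

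By library, Psmd12 had 159, 132 and 149.5 CPM with LPS and antibody at 72 h, a group mean of 147 ± 13.8 CPM (SD, n = 3) against 84.3 ± 10.6 CPM (SD, n = 5) with PBS. Psmd1 had 324, 272 and 295 CPM, and its lowest library was above the highest PBS library. Of the peptidase subunits, Psmb7 had 189, 159.6 and 195 CPM and was called (log2 change 0.59, SE 0.18, edgeR adjusted p = 0.0432), a call kept in 2 of 8 fits leaving out a library and in 5 of 8 other settings. Psmb5, with 129, 153 and 151 CPM, had a change of 0.44 (SE 0.22, edgeR adjusted p = 0.184), and Psmb6, with 166, 152 and 174 CPM, one of 0.23 (SE 0.21, edgeR adjusted p = 0.466); both overlapped with PBS. Differences between subunits in these changes were not tested. Psmg1 had 36.8, 48.7 and 57.1 CPM, also overlapping. Among the markers, 2 of 11 HSPC, 2 of 11 macrophage and 5 of 9 T and NK genes were lower than with PBS (6.43% of tested genes). The part of these markers was not tested. The count of members depended on single libraries: it was 12 without library 1 and 9 without library 3 of the antibody group at 72 h, and 15 without PBS library 2, 3 or 5, while the median stayed between 0.54 and 0.65 in all 8 fits that left 1 library out. Over all tested genes 1975 were called in the main fit, and 693 and 583 without library 1 or 3 of the antibody group. Without PBS library 2, 3 or 5 there were 941, 1223 and 1019.

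LPS with antibody was then set directly against LPS alone at 72 h. Here 16 members were higher and 0 lower by edgeR, against 15.1% of tested genes called and 8.64% higher, and 26 members did not overlap (17.1% of tested genes). The median difference was 0.48. Called members were 4 of 6 base ATPases (Psmc1, Psmc2, Psmc4 and Psmc6), 2 of 3 other base subunits (Psmd1 and Psmd2), 6 of 8 lid subunits (Psmd3, Psmd6, Psmd7, Psmd11, Psmd12 and Psmd14), the core alpha subunits Psma3 and Psma4, and the activators Psme3 and Psme4. Core beta subunits were called in 0 of 7 and chaperones in 0 of 7, and at an unadjusted p below 0.05 in 3 and 1 (32.5% of tested genes), and the difference between classes was not tested.

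Psmd1 had the largest difference, with 137, 159 and 159 CPM with LPS and 324, 272 and 295 CPM with LPS and antibody (log2 difference 0.97, SE 0.12, edgeR adjusted p = 0.00122). Psmd12 was equal in size, at 0.97 (SE 0.14, edgeR adjusted p = 0.00127), and Psmd3, another lid subunit, differed by 0.91 (SE 0.18, edgeR adjusted p = 0.00524). For Psmd1 the lowest antibody library was far above the highest LPS library. Psme3 had 139, 161 and 154 CPM with LPS and 272, 271 and 295 CPM with antibody (0.88, SE 0.15, edgeR adjusted p = 0.00223). Psme4 had 70.7, 74.4 and 86.2 CPM and then 127, 121 and 121 CPM (0.67, SE 0.12, edgeR adjusted p = 0.0034). For the other pair of caps the antibody made no called difference. Psme1 had 337, 317 and 229 CPM with LPS and 501, 268 and 223 CPM with antibody, and Psme2 had 170.2, 189.6 and 128 CPM and then 259, 140.0 and 162 CPM. Their groups overlapped, with differences of 0.17 (SE 0.33) and 0.20 (SE 0.28) that were not called.

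Leaving out LPS library 1 at 72 h reduced the count to 9, with a median of 0.52. Over all tested genes 769 were called in that fit, against 2256 in the main fit. Among the markers, 1 of 11 HSPC, 1 of 9 T and NK and 1 of 11 macrophage genes were lower with antibody (6.48% of tested genes). Of 10 erythroid genes 1 was higher (8.64% of tested genes). Macrophage sums were 517 to 900 CPM with LPS and 289 to 551 CPM with antibody, although the median marker was higher by 2.05 on the log2 scale. The antibody libraries were spread widely for some macrophage markers, with 0.778 to 25.8 CPM for C1qa against 0.439 to 3.13 CPM with LPS. The part of all these markers in the difference was not tested. Of 15 cell division genes 0 were called, with a median difference of -0.11.

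**Figure D3:**
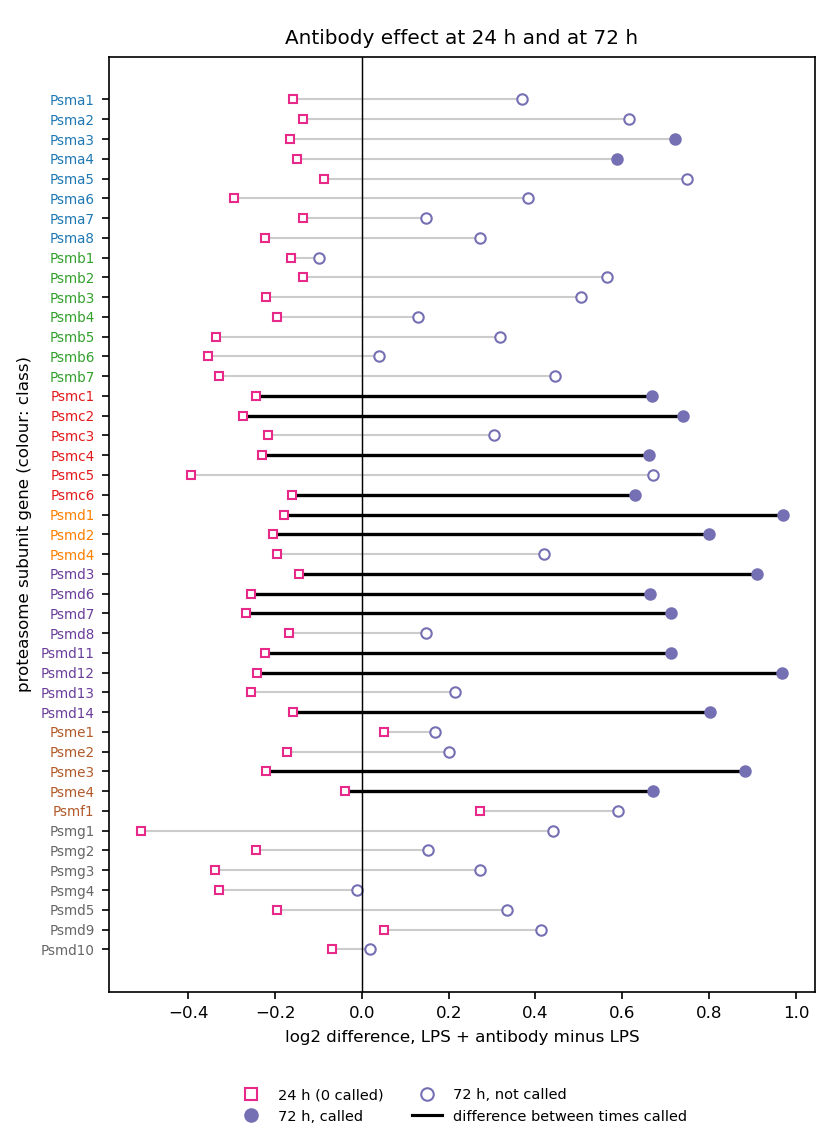
Log2 difference between LPS with antibody and LPS alone for each subunit, at 24 h (squares, 0 called) and at 72 h (circles, filled for the 16 called by edgeR); black bars join the times for the 14 members whose difference between the times was called, all but 2 of them in the base and lid. The 72 h circles lie to the right of the 24 h squares in all 44 members.

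Whether the antibody effect changed with time was tested as an interaction. The effect was larger at 72 h than at 24 h for 14 members and smaller for 0 by edgeR, against 6.35% of tested genes called and 4.03% in this direction. The 14 comprised 4 base ATPases, 2 other base subunits, 6 lid subunits, Psme3 and Psme4. The largest values were 1.21 for Psmd12 (SE 0.20, edgeR adjusted p = 0.00831), 1.15 for Psmd1 (SE 0.17, edgeR adjusted p = 0.00831) and 1.10 for Psme3 (SE 0.21, edgeR adjusted p = 0.0104). Of 15 core subunits 0 were called, with estimates from 0.07 to 0.89 and 7 at an unadjusted p below 0.05 (24.2% of tested genes). Among promoters matched, CCGGAAG stood in 9 of the 12 promoters of members called here and in 4 of the 24 promoters of the other members, a description with no test. Apart from Psme3 and Psme4, the called members are base and lid subunits. In those classes the letters stood in 9 of 14 promoters, against 0 of 11 in the core. The 2 sets thus differ by class, and no link of these letters to the antibody effect can be read from them.

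This count was the least stable. It was 8 without LPS library 1 at 24 h, 2 with both 24 h libraries numbered 1 left out, 6 and 5 without library 1 or library 3 of the antibody group at 24 h, 5 without LPS library 1 at 72 h and 7 without library 3 of the antibody group at 72 h. Over all tested genes the calls, 947 in the main fit, were 660, 127, 376, 291, 231 and 513 in these fits, in the same order. The 2 that were called in all 12 fits leaving out 1 library and in all 9 other settings were Psmd1 and Psmd12. Psme3 and Psmd2 were called in all 12 and in 8 of the 9.

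Between 72 h and 24 h within the antibody groups 0 of 44 members were called by edgeR, as were 0% of tested genes (635 genes, 4.26%, and 0 members at an unadjusted p below 0.05; 0 members by DESeq2). The median change was -0.16, from -0.47 for Psmb4 to 0.46 for Psma8, with standard errors up to 0.33.

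The balance between the parts of the proteasome was followed in each library as the mean log2 change from PBS of the 17 regulatory particle members minus that of the 15 core members. It ran from -0.08 to 0.05 with PBS, and from -0.27 to -0.06 with LPS at 72 h, where regulatory particle transcripts were the lower. With LPS and antibody at 72 h it ran from 0.04 to 0.12, so that the 2 groups at 72 h did not overlap. Each of these groups overlapped with PBS: LPS library 3 (-0.06) and antibody library 2 (0.04) lay within the PBS range. At 24 h it was -0.09, 0.16 and 0.13 with LPS and -0.03, 0.11 and -0.01 with antibody, without a clear side. These are descriptions with no test. Merged exon length differed between the classes, with medians of 2723 bases for core alpha, 1951 for core beta and 2939 for the lid. Across the 44 members the rank correlation of length with the antibody effect at 72 h was 0.33, and across 14617 genes 0.09, a description of genes measured in the same libraries.

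**Figure D4:**
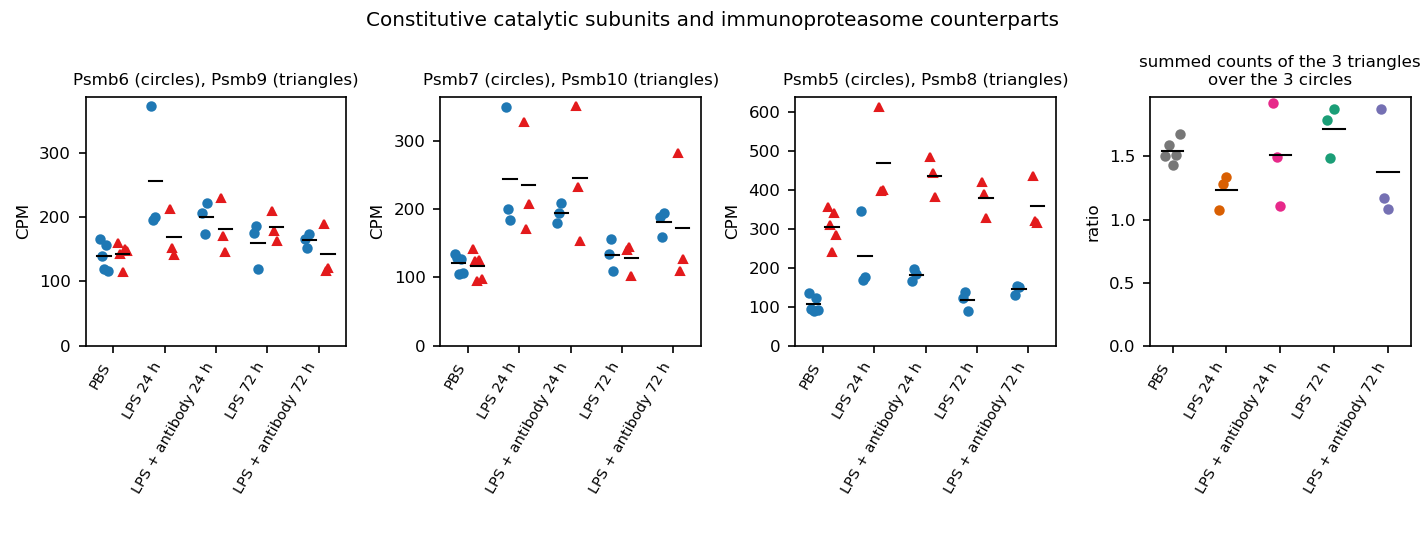
CPM of each constitutive peptidase subunit (circles) and its immunoproteasome counterpart (triangles) in each library, with group means as bars, and the ratio of the summed counts of the 3 immunoproteasome subunits to those of the 3 constitutive ones. The 3 LPS 24 h libraries (1.08 to 1.34) lie below all PBS libraries (1.43 to 1.68), and in both antibody groups library 1 lies highest.

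The immunoproteasome counterparts were read beside the constitutive peptidases. Psmb10 rose at 24 h by 1.02 (SE 0.31, edgeR adjusted p = 0.0172) with LPS and by 1.08 (SE 0.31, edgeR adjusted p = 0.022) with antibody, and Psmb8 by 0.62 (SE 0.17) and 0.51 (SE 0.17). Psmb9 was called in 0 of the 9 comparisons. Relative to PBS, the mean of these 3 genes on the log2 scale was 1.04 in LPS library 1 at 24 h. It was 0.357 in library 2 and 0.415 in library 3. Their changes were not examined without library 1. The summed counts of the 3, divided by those of Psmb5, Psmb6 and Psmb7, gave 1.50, 1.59, 1.43, 1.51 and 1.68 with PBS and 1.08, 1.28 and 1.34 with LPS at 24 h. Each LPS library at 24 h thus had fewer immunoproteasome transcripts per constitutive one than any PBS library. The ratio was 1.79, 1.49 and 1.88 with LPS at 72 h, 1.93, 1.50 and 1.11 with antibody at 24 h and 1.87, 1.17 and 1.08 with antibody at 72 h; it was given as a description.

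Other genes of the ubiquitin pathway were read from a list of 35, of which 30 were tested. With LPS at 24 h 13 were higher and 1 lower (Zfand5, which binds the proteasome, -0.39), with a median of 0.38. Of all tested genes 19.1% were higher and 18.5% lower. The largest increases were in proteins that dock on the regulatory particle: the deubiquitinase Usp14 (1.03), the ubiquitin receptor Adrm1 (1.00) and the deubiquitinase Uchl5 (0.96). With LPS at 72 h 0 were called, with 3 of 30 at an unadjusted p below 0.05 (11.4% of tested genes). With the antibody at 72 h 9 were higher than with PBS and 12 higher than with LPS alone, and for 9 the antibody effect grew with time, again including Uchl5 (1.30), Usp14 (1.04) and Adrm1 (0.97). Of all tested genes 6.81%, 8.64% and 4.03% were called in these directions. Nfe2l1, which encodes NRF1, a factor that drives proteasome genes when proteasome activity is short, had a change of 0.24 with LPS at 24 h that was not called and a called antibody effect of 0.47 at 72 h. Changes of these listed genes were not examined without LPS library 1 at 24 h.

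The 8 genes of the TRiC chaperonin, which folds actin, tubulin and other proteins, were listed as another multi-subunit machine. They rose in 8 of 8 with LPS at 24 h (median 1.02) and in 8 of 8 with antibody at 24 h, and 0 were called with LPS at 72 h. Of all tested genes 19.1% and 11.7% were higher at 24 h. Their summed levels were 2848 to 4012 CPM with PBS and 5367 to 8741 CPM with LPS at 24 h. Their changes were not examined without LPS library 1 at 24 h. At 72 h with antibody 5 were higher than with PBS, 6 were higher than with LPS alone, and for 6 the antibody effect was larger at 72 h than at 24 h. The shares of all tested genes were 6.81%, 8.64% and 4.03%. The rise at 24 h and the antibody effect at 72 h were thus also measured in at least 1 other complex.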

How the data were processed

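RNA of sorted HSPC was measured in 17 libraries of 5 groups, taken from the sample titles. The authors deposited raw read counts per gene symbol. The submitters' processing notes name HISAT2 2.2.0, Subread, featureCounts 2.1.1, R 4.3.2, DESeq2 and GRCm38; the annotation, strandedness and handling of reads that match several genes are not given in the sources used here. There were 13321 genes at 0 in every library.

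The deposited counts entered edgeR 4.0.16 (R 4.3.3) with filterByExpr (minimum count 10, minimum total 15), which kept 99.9% of counts, TMM factors and 1 quasi-likelihood fit of all libraries with a mean per group, 9 comparisons, p-values adjusted by Benjamini-Hochberg over all 14920 tested genes. Each standard error was obtained by dividing the size of the change by the root of its F value. Alternatives used limma 3.58.1 and DESeq2 1.42.0.

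The members, lists and motifs were chosen with earlier results of these data known. Members given library by library were those with the smallest and largest p of each class with LPS at 24 h, the peptidase subunits and Psme1 to Psme4; for each comparison the 3 largest called changes were named. Same-numbered PBS and LPS 24 h libraries deviated together (correlations 0.172, 0.186 and 0.212 over genes), a pairing that comes from the data and not from the labels; in no other compared pair of groups did all 3 exceed 0.1.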

Additional observations from a re-analysis of the deposited data

Results flagged for a closer look

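For 14 subunits the effect of the antibody differed between 72 h and 24 h by the interaction test of edgeR, with the larger effect at 72 h in each. In the base the differences on the log2 scale were 0.91 for Psmc1, 1.01 for Psmc2, 0.89 for Psmc4, 0.79 for Psmc6, 1.15 for Psmd1 and 1.00 for Psmd2. In the lid they were 1.06 for Psmd3, 0.92 for Psmd6, 0.98 for Psmd7, 0.93 for Psmd11, 1.21 for Psmd12 and 0.96 for Psmd14. For the activators they were 1.10 for Psme3 and 0.71 for Psme4.

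Psmg1 in PBS library 1, at 41.9 CPM, lay apart from the other 4 PBS libraries, which spanned 32.6 to 35.1 CPM. It was the 1 such case among 50 measures examined, each taken in the same 5 PBS libraries. Chance alone sets about 1 in 20 apart among independent measures, a rate that need not hold for measures sharing libraries.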

How the results depend on the processing

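Members called with LPS at 24 h, with antibody at 24 h and in the fall between the LPS times stayed within 1.5 times under the planned settings other than single libraries left out, and no called member changed direction in any setting. Counts that moved further were those with LPS at 72 h (4 by voom), with antibody at 72 h (6 with the replicate number as a block) and in the antibody-by-time difference: 6 with only the compared groups fitted, 9 by voom, 7 with the block and 2 with both 24 h libraries numbered 1 left out. Over all tested genes 2170 were called with LPS at 72 h by voom, against 3 in the main fit. With antibody at 72 h 374 were called with the block, against 1975. For the antibody-by-time difference the all-gene counts were 286, 1585, 333 and 127 in the same order, against 947. Why the counts moved was not tested. Fits leaving out 1 library called 36 to 40 members with LPS at 24 h, 0 to 0 with LPS at 72 h, 24 to 36 with antibody at 24 h, 9 to 24 with antibody at 72 h, 0 to 0 for the antibody effect at 24 h, 9 to 19 at 72 h, 25 to 37 for LPS at 72 h against 24 h, 0 to 0 between the antibody groups and 5 to 16 for the difference.

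With the block, 39 members were called with LPS at 24 h (Psmb1 was lost, edgeR adjusted p = 0.0513), 28 with antibody at 24 h, 17 for the antibody effect at 72 h and 38 in the fall between the LPS times. Over all tested genes these counts were 4163, 1721, 1774 and 4356. Between the antibody groups at 24 h and 72 h, same-numbered libraries had correlations of 0.768, 0.009 and 0.713 of their deviations (numbers 1, 2 and 3), so libraries 1 and 3 deviated together and library 2 did not; the labels do not say what the numbers share.

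Upper-quartile factors moved the median of all genes with LPS at 24 h from -0.03 to -0.16, with 2030 higher and 3490 lower genes against 2849 and 2767, and the members' median relative to it was 0.93 under both scalings. For the antibody effect at 72 h the all-gene split went from 1289 higher and 967 lower to 968 and 1315, for the interaction from 601 and 346 to 435 and 440, for antibody at 72 h against PBS from 1016 and 959 to 659 and 1348, for antibody at 24 h from 1743 and 1862 to 1120 and 2328, and for LPS between the times from 2192 and 2454 to 2783 and 1919.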

Other observations

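In the antibody groups a few subunits were set apart by library number. Library 1 exceeded the mean of the other 2 libraries by a factor above 1.5 at both times for 4 members. This count was not made over all tested genes. Over all tested genes, deviations of the 2 antibody libraries numbered 1 had a correlation of 0.768. For Psme1 the ratio was 2.03 at 24 h and 2.04 at 72 h, for Psmd9, a base chaperone, 1.78 and 1.71, for the inhibitor Psmf1 1.70 and 1.89, and for Psme2 1.53 and 1.71. Psmb10, of the immunoproteasome, had 1.82 and 2.39. The median ratio over the 44 members was 1.01 and 1.05, so most subunits did not share this. The cause was not tested.

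Of 15 cell division genes listed, 3 were higher with LPS at 24 h (Birc5, Bub1 and Ccna2), where 19.1% of all tested genes were higher, and 0 were called in the other comparisons. Their median change against PBS was 0.33 with LPS at 24 h and 0.28 with antibody at 24 h. The difference from the subunits was not tested.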
